A study of Mus musculus with 4 samples.

Results

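The genes *Nlrp4a*, *Nlrp4b*, *Nlrp4c*, *Nlrp4e*, *Nlrp4f*, *Nlrp9a*, *Nlrp9b*, *Nlrp9c* and *Nlrp14* were followed in late 2C mouse embryos, the stage just before the second cleavage. They were chosen by symbol and make up 9 of the 26022 genes in the deposited count table. The 2 libraries labelled Mdivi-1 came from ICR (outbred) embryos cultured for 16 h from the zygote with 200 µM Mdivi-1, a small molecule used to inhibit DRP1, the GTPase that divides mitochondria. The 2 libraries labelled Control came from ICR embryos cultured for the same time with no Mdivi-1 (0 µM). Whether the control medium held the solvent is not stated for the embryos. The zygotes of both groups came from superovulated females, and according to the methods each group had 8 to 10 embryos lysed together for Smart-Seq2, an assay of polyadenylated RNA that keeps no strand. The labels give the treatment under the heading of genotype, although no allele was altered. Nor do they tell if a group's 2 libraries are independent collections of embryos. The p-values therefore measure no more than the spread among these samples, and that spread may be technical. In pooled embryos, more embryos that carry an RNA and more of that RNA in each embryo cannot be told apart.

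NLRP proteins have a pyrin domain, a nucleotide-binding NACHT domain and leucine-rich repeats. Some of them, such as NLRP3, assemble inflammasomes in immune cells. Another group is transcribed mainly in growing oocytes, and its mRNA is stored for the egg and early embryo. Most stored maternal mRNA is degraded between meiotic maturation and the 2C stage, while the embryo starts its own transcription. In mouse the *Nlrp4* and *Nlrp9* genes have multiplied into families of copies, whereas human has a single gene of each.

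The counts summed to 17712075 and 18500928 in the Mdivi-1 libraries, and to 20077326 and 18279626 in the Control libraries. The number of genes with at least 1 count ranged over libraries from 14793 to 16311. All 8 markers of the 2C embryo that were looked up had counts in all 4 libraries. In 4 of them, *Zfp352* and *Zscan4d* included, both Mdivi-1 libraries lay above both Control libraries, and in 2, *Obox6* and *Pramel7*, both lay below. The summed level of all 8 was 2043 and 2852 CPM (a gene's count relative to the library total, scaled by TMM factors) in Mdivi-1 libraries, against 1970 and 2958 CPM in Control libraries. That sum leaned on *Obox6*, the highest of them. The other 7 together had 1613 and 2203 CPM in Mdivi-1 libraries, against 965 and 1527 CPM in Control libraries. Of markers of other cells, *Amh*, *Has2* and *Ptx3* of cumulus or granulosa cells, *Hbb-bs* of blood, *Foxj1* of oviduct and *Tnp2* of sperm had no count in any library. Counts in all 4 libraries were found for 3 of 10 markers of cumulus or granulosa cells and 4 of 5 of blood. The same held for 2 of 6 of oviduct and 0 of 5 of sperm. The summed markers of cumulus or granulosa cells, mostly *Amhr2* and *Tnfaip6*, were 26.6 and 24.1 CPM in Mdivi-1 libraries, against 20.3 and 35.0 CPM in Control libraries. Those of blood, mostly *Hba-a1*, were 71.1 and 64.0 CPM in Mdivi-1 libraries, against 78.2 and 75.8 CPM in Control libraries. Those of oviduct, mostly *Epcam*, were 329 and 247 CPM in Mdivi-1 libraries, against 343 and 406 CPM in Control libraries. Those of sperm, of which *Prm2* was the highest, were 6.07 and 2.76 CPM in Mdivi-1 libraries, against 2.59 and 1.51 CPM in Control libraries.

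The 9 genes took a larger part of the transcriptome in embryos cultured with Mdivi-1. Their reads made up 0.252% and 0.294% of all counts in Mdivi-1 libraries, against 0.108% and 0.123% in Control libraries. Most of these reads came from *Nlrp9c*. The other 8 together had 1035 and 1172 CPM in Mdivi-1 libraries, against 433 and 393 CPM in Control libraries. All 9 had a log2 fold change (Mdivi-1 over Control) above 0, as did 51.3% of the 14259 genes that passed the filter on low counts, which all 9 passed. The median over the 9 genes was 1.76, with a range of 0.32 to 3.19, while the median over all genes tested was 0.03. With library totals in place of TMM factors, the median of all genes moved to 0.14. In 6 of the 9 genes (*Nlrp4a*, *Nlrp4e*, *Nlrp4f*, *Nlrp9a*, *Nlrp9b* and *Nlrp9c*) both Mdivi-1 libraries lay above both Control libraries, a pattern seen in 26.1% of all genes. None of the 9 had both Mdivi-1 libraries below, as 23.9% of all genes did.

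Whether these differences passed a test depended on the test. The quasi-likelihood test of edgeR with Benjamini-Hochberg adjustment over all genes called 0% of the 14259 genes in either direction and so none of the 9. The smallest adjusted p of any gene was 0.109. At an unadjusted p below 0.05, edgeR had 5 of the 9 genes higher and none lower, beside 8.27% of all genes higher and 7.64% lower. DESeq2 at an adjusted p below 0.05 called *Nlrp4e*, *Nlrp4f*, *Nlrp9a* and *Nlrp9b* higher, which is 4 of the 9 genes, beside 3.30% of the 13982 genes with an adjusted p called higher and 2.80% called lower. When each library in turn was left out of the DESeq2 fit, the number of the 9 genes called was 2 when Mdivi-1 replicate 1 was missing and 2 when Mdivi-1 replicate 2 was, against 4 when Control replicate 1 was missing and 5 when Control replicate 2 was. Over all genes, those fits called 54 and 68 higher without the Mdivi-1 libraries, against 788 and 603 without the Control libraries.

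**Figure D1:**
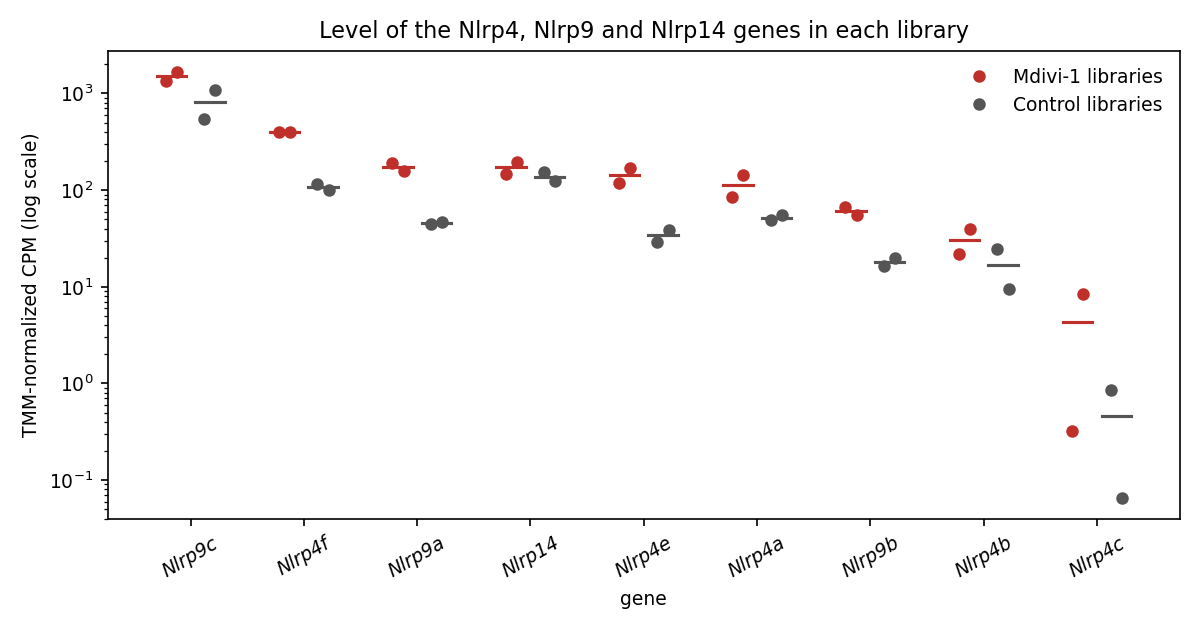
CPM of each of the 9 genes on a log axis, with 1 point per library, Mdivi-1 left of Control, and a line at each group mean. The Mdivi-1 points lie apart from and above the Control points for *Nlrp4a*, *Nlrp4e*, *Nlrp4f*, *Nlrp9a*, *Nlrp9b* and *Nlrp9c*, and the groups overlap for *Nlrp4b*, *Nlrp4c* and *Nlrp14*.

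*Nlrp4f* lies apart from the other 8 genes, on chromosome 13 from 65177111 to 65205977 on the minus strand (GRCm38, GENCODE M21). In mouse it is a maternal-effect gene, since embryos of females that lack it develop late before implantation. It had 404 and 401 CPM in Mdivi-1 libraries, against 115 and 101 CPM in Control libraries. The groups lay far apart and the Mdivi-1 libraries were almost equal. The log2 fold change was 1.90 ± 0.29 (SE), with an adjusted p of 0.136 by edgeR and 5.54e-07 by DESeq2. By edgeR p it was gene 17 of the 14259 tested, and by DESeq2 p gene 9. Its adjusted p from DESeq2 stayed below 0.05 whichever library was left out, with 0.0176 the highest, when Mdivi-1 replicate 1 was left out.

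*Nlrp4e* (chromosome 7, 23301192 to 23362277, plus strand) is known in mouse from knockdown in the zygote, after which embryos stop cleaving. It had 117 and 169 CPM in Mdivi-1 libraries, against 29.2 and 38.7 CPM in Control libraries. The groups did not overlap, and its log2 fold change of 2.08 ± 0.34 (SE) was the largest among the 6 genes whose groups did not overlap. Its adjusted p was 0.136 by edgeR and 2.49e-05 by DESeq2, and without Mdivi-1 replicate 2 DESeq2 no longer called it. Of the 100-base stretches of its transcripts, 11.5% also occur in transcripts of other genes, mainly *Gm8486*, *Gm8728*, *Gm8685* and *Gm16443*, which are not among the rows of the table. Fragments that lie wholly within such stretches cannot map uniquely, and how many do at the read length of the study was not tested, so that its level is uncertain.

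*Nlrp4a* (chromosome 7, 26435113 to 26476142, plus strand) had 85.1 and 143 CPM in Mdivi-1 libraries, against 49.0 and 54.7 CPM in Control libraries. The groups did not overlap, and the Mdivi-1 libraries differed from each other by more than the Control libraries did. The log2 fold change was 1.14 ± 0.35 (SE), with an adjusted p of 0.212 by edgeR and 0.0626 by DESeq2. With no filter on low counts edgeR gave an adjusted p of 0.0487.

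*Nlrp4b* (chromosome 7, 10687789 to 10730168, plus strand) had 21.6 and 39.5 CPM in Mdivi-1 libraries, against 24.4 and 9.45 CPM in Control libraries. Control replicate 1 lay above Mdivi-1 replicate 1, so that the groups overlapped, and the log2 fold change of 0.85 ± 0.56 (SE) had an adjusted p of 0.516 by edgeR. *Nlrp4c* (chromosome 7, 6045161 to 6105150, plus strand) had few reads in 3 of the 4 libraries. It had 6 and 161 counts in Mdivi-1 libraries, against 19 and 1 counts in Control libraries. Its log2 fold change of 3.19 ± 1.89 (SE), the largest of the 9, rested on Mdivi-1 replicate 2, and without that library it was -0.55. Its adjusted p was 0.459 by edgeR. *Nlrp4c* and *Nlrp4e* transcripts were 93.5% identical over their aligned bases, the closest pair of the 9, while the other pairs of *Nlrp4* genes were 78.6% to 85.8% identical.

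Summed over the 5 *Nlrp4* genes, the level was 628 and 762 CPM in Mdivi-1 libraries, against 219 and 204 CPM in Control libraries, a ratio of 3.29. Reads that map to several copies are left out of this sum as they are of each gene. Of the 5 genes, DESeq2 called *Nlrp4e* and *Nlrp4f*.

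*Nlrp9a* (chromosome 7, 26535023 to 26575615, plus strand) had 192 and 158 CPM in Mdivi-1 libraries, against 44.8 and 46.8 CPM in Control libraries. The groups lay far apart, the controls were nearly equal, and the log2 fold change was 1.93 ± 0.30 (SE), with an adjusted p of 0.136 by edgeR and 1.04e-05 by DESeq2. It was gene 18 of the 14259 by edgeR p, next to *Nlrp4f*, and without Mdivi-1 replicate 1 DESeq2 no longer called it. *Nlrp9b* (chromosome 7, 19991465 to 20073306, plus strand) is known outside the germ line in mouse, where in gut epithelium it detects rotavirus RNA together with the helicase DHX9. It had 66.3 and 55.1 CPM in Mdivi-1 libraries, against 16.3 and 19.6 CPM in Control libraries. These groups did not overlap either. The log2 fold change was 1.76 ± 0.35 (SE), with an adjusted p of 0.146 by edgeR and 0.00330 by DESeq2. DESeq2 no longer called *Nlrp9b* without Mdivi-1 replicate 1 or without Mdivi-1 replicate 2. Its exons share 136 bases with the pseudogene *Gm18877*, on the same strand, and reads of this stretch cannot be divided between them.

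*Nlrp9c* (chromosome 7, 26322473 to 26403700, minus strand) was by far the most abundant of the 9. It had 1356 and 1667 CPM in Mdivi-1 libraries, against 550.3 and 1088 CPM in Control libraries. Both Mdivi-1 libraries were higher, but the Control libraries differed by about as much as the groups did, and the log2 fold change of 0.88 ± 0.40 (SE) had an adjusted p of 0.334 by edgeR and 0.135 by DESeq2. With Control replicate 1 left out it was 0.47. With Control replicate 2 left out it was 1.44, and in that setting DESeq2 gave an adjusted p of 2.62e-05. The 3 *Nlrp9* genes together had 1615 and 1880 CPM in Mdivi-1 libraries, against 611 and 1154 CPM in Control libraries, a ratio of 1.98, in which *Nlrp9c* weighs most.

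*Nlrp9c*, *Nlrp4a* and *Nlrp9a* are neighbours on chromosome 7, with 31412 bases between *Nlrp9c* and *Nlrp4a* and 58880 bases between *Nlrp4a* and *Nlrp9a*. The transcripts of *Nlrp9a* and *Nlrp9c* were 88.2% identical, yet no 100-base stretch occurs in both. Only 0.820% and 0.229% of their 100-base stretches occur in another gene, which is *Nlrp9b*. Uniquely mapped reads can thus largely tell *Nlrp9a* and *Nlrp9c* apart. The likeness goes beyond the transcripts. Their 250 bases before the start site, taken from RefSeq on GRCm38.p6, share an identical run of 106 bases. The 100 bases just before each start are shown because the same CCAAT elements stand in both, at chr7:26534923-26535022 on the plus strand for *Nlrp9a* and chr7:26403701-26403800 on the minus strand for *Nlrp9c*, and the capitals mark CCAAT.
Nlrp9a: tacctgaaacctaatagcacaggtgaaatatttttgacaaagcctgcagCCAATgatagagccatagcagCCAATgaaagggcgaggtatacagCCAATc
Nlrp9c: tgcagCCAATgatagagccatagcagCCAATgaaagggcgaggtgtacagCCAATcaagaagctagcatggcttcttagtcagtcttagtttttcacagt
In both, 3 copies of CCAAT stand in the same spacing, and *Nlrp9a* starts nearer to them. The counts of *Nlrp9a* relative to those of *Nlrp9c* in the same library were 0.142 and 0.0947 in Mdivi-1 libraries, against 0.0815 and 0.0430 in Control libraries. Both Mdivi-1 libraries were above both Control libraries.

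CCAAT, the element bound by the factor NF-Y, was looked for after these windows had been read, on both strands of 300-base windows (250 bases before and 50 after the start). At least 1 copy occurs in 37.4% of all 32851 promoter windows, at least 2 in 11.7% and at least 3 in 3.37%. RefSeq windows were matched for 8 of the 9 genes, with a second start for *Nlrp4a* and *Nlrp4b*. *Nlrp4c* had 3 copies and *Nlrp4b* 2, *Nlrp4a* had 1 at its second start and none at its first, *Nlrp4e* had 1 further from its start, and *Nlrp9b* and *Nlrp4f* had none. The RefSeq window of *Nlrp9b*, from 20007773 to 20008072, lies inside the gene, which in GENCODE starts at 19991465. Motifs at that GENCODE start were not looked for, so what is given for *Nlrp9b* holds for the RefSeq window only. The 100 bases before 3 of the *Nlrp4* starts, picked after the windows were read, are shown because they share CCAAT and the bases after it, at chr7:6045061-6045160 for *Nlrp4c*, chr7:10687693-10687792 for *Nlrp4b* and chr7:26435514-26435613 for the second start of *Nlrp4a*, all on the plus strand. The capitals mark CCAAT, or ATTGG where it stands on the other strand.
Nlrp4c: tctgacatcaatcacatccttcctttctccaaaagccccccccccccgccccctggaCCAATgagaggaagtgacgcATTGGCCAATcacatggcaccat
Nlrp4b: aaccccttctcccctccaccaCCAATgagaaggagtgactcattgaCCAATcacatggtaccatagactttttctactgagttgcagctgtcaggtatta
Nlrp4a: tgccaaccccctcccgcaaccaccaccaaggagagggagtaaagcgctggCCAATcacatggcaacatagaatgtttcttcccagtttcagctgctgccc
The longest run shared by *Nlrp4c* and this start of *Nlrp4a* was 17 bases, and *Nlrp4b* shared 12 with each. Set beside the calls, the 4 genes that DESeq2 called were *Nlrp9a* with 3 copies, *Nlrp4e* with 1 and *Nlrp4f* and *Nlrp9b* with none, and those not called were *Nlrp9c* and *Nlrp4c* with 3 copies each, *Nlrp4b* with 2 and *Nlrp4a* with 1 at its second start. TAATTG, the element of the oocyte factor NOBOX, occurred 2 times in the window of *Nlrp9a* and 1 time in that of *Nlrp9b*. At least 1 copy of TAATTG occurs in 8% of all windows and at least 2 in 0.59%. CANNTG, the E-box bound by factors such as FIGLA, occurred in all the windows of the 8 genes and in 72.3% of all windows, and TAATCC, a homeobox element, in that of *Nlrp9c* alone and in 7.06% of all windows. For *Nlrp4f*, 5 of its 8 GENCODE transcripts start more than 30 bases before the RefSeq start.

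*Nlrp14* (chromosome 7, 107166990 to 107198102, plus strand), which females need for the first cleavages of their embryos in mouse, had the smallest difference. It had 148 and 197 CPM in Mdivi-1 libraries, against 153 and 123 CPM in Control libraries. The groups overlapped, and the log2 fold change of 0.32 ± 0.31 (SE) had an adjusted p of 0.681 by edgeR and 0.731 by DESeq2.

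**Figure D2:**
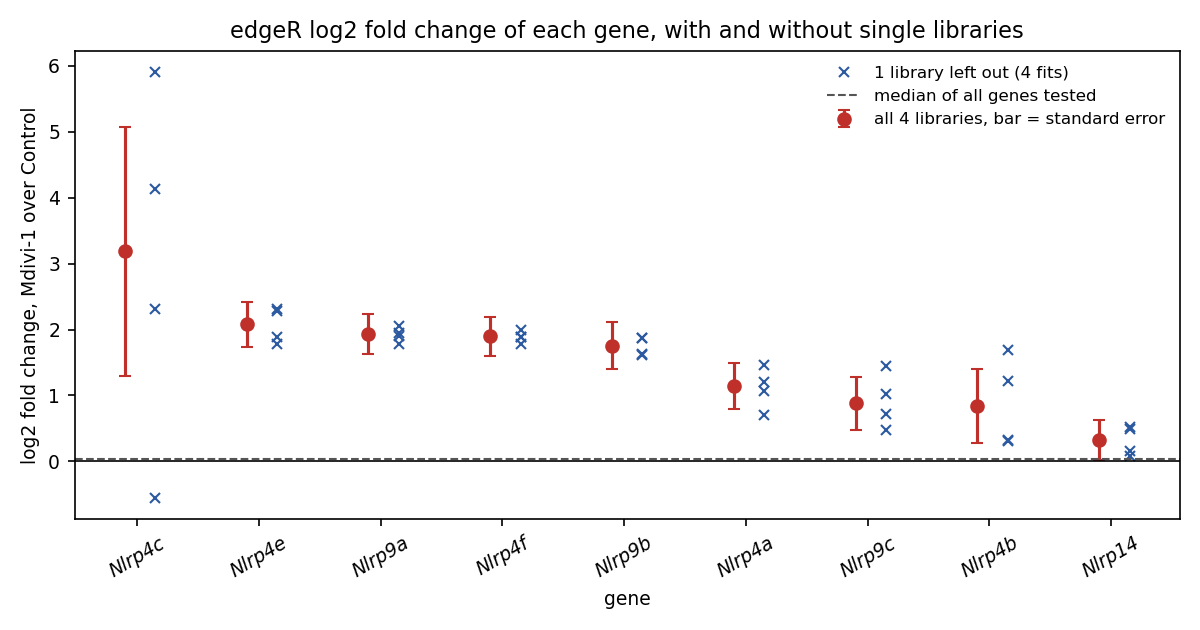
log2 fold change (Mdivi-1 over Control) of each of the 9 genes from edgeR, as a point with a bar of 1 SE from all 4 libraries and as crosses from the 4 fits that each leave out 1 library, with a dashed line at the median of all genes tested. *Nlrp4e*, *Nlrp9a*, *Nlrp4f* and *Nlrp9b* lie between 1.76 and 2.08 with their crosses close by, *Nlrp14* lies lowest at 0.32, and the crosses of *Nlrp4c* spread from -0.55 to 5.91.

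Ratios of counts within a library do not depend on how libraries are scaled. *Nlrp14* served as the common denominator because it moved least, a choice made after its values were seen. Since *Nlrp14* had the lowest log2 fold change of the set, higher ratios over it in Mdivi-1 libraries follow in part from that choice. They are no separate result. *Nlrp4f* had 2.73 and 2.03 counts per count of *Nlrp14* in Mdivi-1 libraries, against 0.754 and 0.819 in Control libraries. *Nlrp4e* had 0.792 and 0.856 in Mdivi-1 libraries, against 0.191 and 0.315 in Control libraries. *Nlrp9a* had 1.30 and 0.800 in Mdivi-1 libraries, against 0.293 and 0.380 in Control libraries. For these genes, for *Nlrp9b* and for *Nlrp4a* both Mdivi-1 libraries lay above both Control libraries. For *Nlrp9c* the ratios were 9.15 and 8.45 in Mdivi-1 libraries, against 3.60 and 8.84 in Control libraries, and they overlapped, as did those of *Nlrp4b* and *Nlrp4c*. Ratios between the genes that DESeq2 called differed less. That follows from their similar log2 fold changes in these same libraries and is no separate result. *Nlrp4f* had 2.10 and 2.54 counts per count of *Nlrp9a* in Mdivi-1 libraries, against 2.57 and 2.15 in Control libraries, and the groups overlapped. *Nlrp9a* had 2.90 and 2.86 counts per count of *Nlrp9b* in Mdivi-1 libraries, against 2.74 and 2.38 in Control libraries, so that both Mdivi-1 libraries were higher, with a ratio of means of 1.12.

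**Figure D3:**
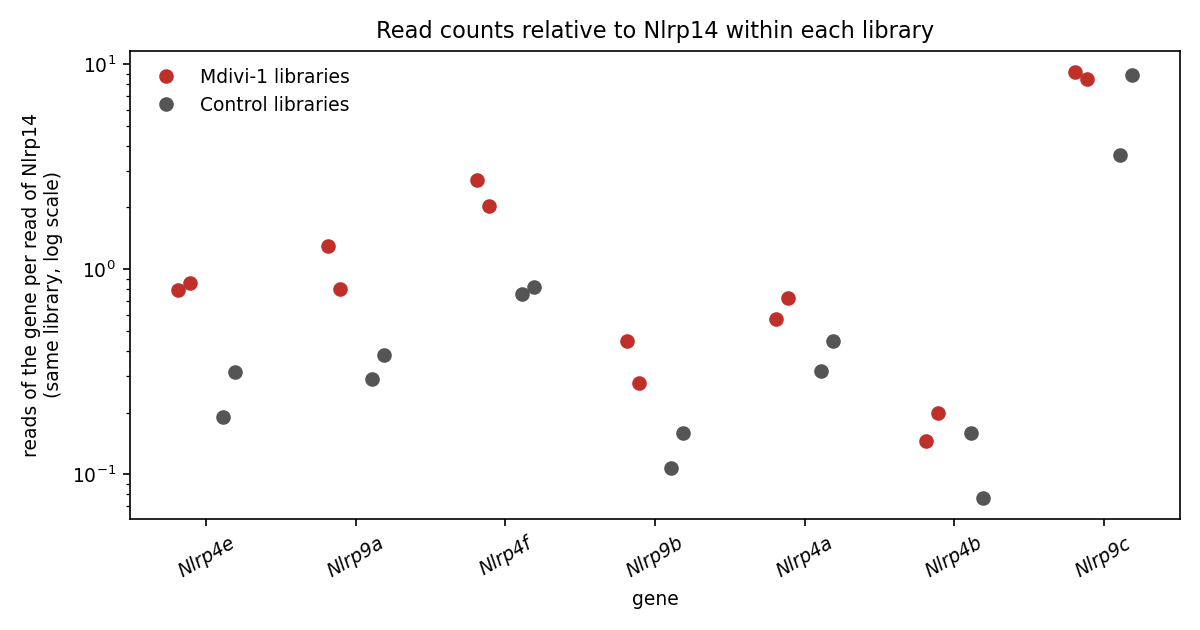
Counts of 7 of the genes divided by the count of *Nlrp14* in the same library (*Nlrp4c*, with few reads, is not drawn), on a log axis, with 1 point per library and Mdivi-1 left of Control. The groups lie apart for *Nlrp4a*, *Nlrp4e*, *Nlrp4f*, *Nlrp9a* and *Nlrp9b*, and overlap for *Nlrp4b* and *Nlrp9c*. The denominator *Nlrp14* was chosen after its values were seen, because it moved least.

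The order of the 9 genes was compared per length, as mean CPM per kilobase of exon. In Mdivi-1 libraries *Nlrp9c* led with 255, followed by *Nlrp4f* with 104, *Nlrp9a* with 50.3, *Nlrp14* with 48.9, *Nlrp4e* with 42.1, *Nlrp4a* with 23.6, *Nlrp9b* with 16.3, *Nlrp4b* with 6.80 and *Nlrp4c* with 1.09. Within that order *Nlrp9a*, *Nlrp14* and *Nlrp4e* all overlapped each other between libraries, and so did *Nlrp4a* and *Nlrp9b*. In Control libraries *Nlrp9c* led with 138, followed by *Nlrp14* with 39.0, *Nlrp4f* with 27.9, *Nlrp9a* with 13.2, *Nlrp4a* with 10.7, *Nlrp4e* with 9.98, *Nlrp9b* with 4.83, *Nlrp4b* with 3.77 and *Nlrp4c* with 0.116, where *Nlrp4a* and *Nlrp4e*, and *Nlrp9b* and *Nlrp4b*, overlapped. *Nlrp14* thus held the second place in Control libraries, above *Nlrp4f* in both, and lay below *Nlrp4f* in both Mdivi-1 libraries. Its share of the CPM per kilobase of all 9 was 8.30% and 9.45% in Mdivi-1 libraries, against 20.8% and 12.1% in Control libraries.

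The likeness of patterns was measured as the root mean square distance between centred log2(CPM + 1) values over the 4 libraries, where a smaller value is more alike. It describes only these 4 libraries, and all 9 genes share their depth and scaling. The nearest pair was *Nlrp9a* and *Nlrp9b* at 0.122, and *Nlrp9a* was also nearest to *Nlrp4f*, at 0.132. *Nlrp4f* was nearest to *Nlrp4e* at 0.290. *Nlrp4a* and *Nlrp9c* were nearest to each other at 0.337, *Nlrp4a* was nearest to *Nlrp14* at 0.432, *Nlrp14* to *Nlrp4b* at 0.473 and *Nlrp4b* to *Nlrp4c* at 0.754. Of 6785 genes with a mean of at least 10 CPM, the 5 nearest to the mean profile of the 9 were *Rab2a* (0.0249), *Spats2* (0.0514), *Zfp846* (0.0629), *Dynlt1b* (0.0936) and *Tcl1* (0.0948). *Tcl1*, itself an oocyte transcript, had 2829 and 4987 CPM in Mdivi-1 libraries, against 1444 and 1433 CPM in Control libraries.

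Other stored oocyte transcripts were examined beside the 9 genes. Of 28 that were measured, including the NLR genes *Nlrp2* and *Nlrp5*, 22 had a log2 fold change above 0 and 6 below, with a median of 0.76. At an unadjusted edgeR p below 0.05, 11 were higher and 2 lower, beside 8.27% and 7.64% of all genes. DESeq2 called 9 higher and none lower, beside 3.30% and 2.80% of all genes. The list was chosen with earlier results of these data known. *Btg4*, an adaptor of the deadenylase that clears maternal mRNA, had 1650 and 3614 CPM in Mdivi-1 libraries, against 380 and 656 CPM in Control libraries. *Bmp15*, a growth factor secreted by the oocyte, had 662 and 975 CPM in Mdivi-1 libraries, against 184 and 273 CPM in Control libraries. *Uchl1*, a deubiquitinating enzyme abundant in oocytes, had 239 and 249.4 CPM in Mdivi-1 libraries, against 90.8 and 79.6 CPM in Control libraries. *Oosp2*, an oocyte-secreted protein, had 212 and 149.6 CPM in Mdivi-1 libraries, against 55.9 and 69.5 CPM in Control libraries. DESeq2 called all 4 of these higher. Not every such transcript was higher, and *Zp3*, a zona pellucida protein, had 149 and 99.2 CPM in Mdivi-1 libraries, against 198 and 269.5 CPM in Control libraries, with an adjusted p of 0.0946 by DESeq2. The summed level of 8 oocyte markers, of which *Bmp15* is the highest, was 1009 and 1222 CPM in Mdivi-1 libraries, against 458 and 637 CPM in Control libraries. No marker of the 8 was at 0 in all libraries. That sum rested on *Bmp15*, and the other 7 markers together had 347 and 248 CPM in Mdivi-1 libraries, against 274 and 364 CPM in Control libraries, which overlap. Of the 8 markers, 4 had both Mdivi-1 libraries above both Control libraries and 1, *Zp3*, had both below. The part of oocyte markers in the results of the 9 genes was not tested.

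Of 10 regulators of oocyte genes, 5 had a log2 fold change above 0 and 5 below, none had an unadjusted edgeR p below 0.05, and the median was 0.22. *Ybx2*, which binds stored mRNA, had 22.5 and 17.04 CPM in Mdivi-1 libraries, against 12.7 and 7.22 CPM in Control libraries, with an adjusted p of 0.393 by edgeR. *Taf4b*, a subunit of a germ cell form of TFIID, had 129 and 139 CPM in Mdivi-1 libraries, against 207 and 172 CPM in Control libraries, with an adjusted p of 0.445 by edgeR. *Tbpl2* and *Foxo3* had log2 fold changes of 1.62 and 0.48, also short of the threshold.

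Among 22 other NLR genes, 13 could be tested, of which 8 had a log2 fold change above 0 and 5 below, with a median of 0.28. DESeq2 called 1 of the 13 higher, beside 3.30% of all genes. It was *Nod2*, a sensor of bacterial cell wall fragments. *Nod2* had 72 and 56 counts in Mdivi-1 libraries and none in either Control library, which makes it at least 17.2-fold higher against a floor of 3 counts per library, with an adjusted p of 0.00781 by DESeq2 and 0.181 by edgeR. *Nlrp2*, another maternal gene, had 25.3 and 12.8 CPM in Mdivi-1 libraries, against 5.10 and 7.94 CPM in Control libraries, with an unadjusted edgeR p of 0.0298 and an adjusted p of 0.2596. *Nlrp12* and *Nlrx1* had log2 fold changes of -1.02 and -2.40, with adjusted p of 0.587 and 0.533 by edgeR. *Nlrp5*, which encodes the subcortical maternal complex protein MATER and lies 23612 bases from *Nlrp4e*, had 53.6 and 61.0 CPM in Mdivi-1 libraries, against 60.1 and 24.5 CPM in Control libraries. Its groups overlapped, as those of *Nlrp14* did.

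Of 11 inflammasome partners 9 were tested, and 6 had a log2 fold change above 0 and 3 below, with a median of 0.84. None had an unadjusted edgeR p below 0.05, and most were at a few CPM. *Dhx9*, the partner of NLRP9B named above, had 33.3 and 55.0 CPM in Mdivi-1 libraries, against 75.0 and 56.8 CPM in Control libraries, with an adjusted p of 0.499 by edgeR. *Dhx15*, another RNA helicase, had 85.9 and 87.1 CPM in Mdivi-1 libraries, against 127 and 128 CPM in Control libraries, with an adjusted p of 0.379. *Nek7* and *Aim2* had log2 fold changes of 1.01 and 1.52, with adjusted p of 0.486 and 0.713. Of 6 partners or targets described for NLRP14 in mouse oocytes, 2 had a log2 fold change above 0 and 4 below, with a median of -0.39, and none had an unadjusted edgeR p below 0.05. *Uhrf1*, which guides maintenance DNA methylation, had 66.8 and 89.1 CPM in Mdivi-1 libraries, against 50.9 and 45.9 CPM in Control libraries, with an adjusted p of 0.341. *Kdm2a*, *Dppa3* and *Usp7* had log2 fold changes of -0.78, -0.51 and -0.28, with adjusted p of 0.6103, 0.634 and 0.725. Of 6 partners of NLRP4 described in human cells, 3 lay above 0 and 3 below, with a median of 0.05, and none had an unadjusted edgeR p below 0.05. *Traf6* and *Ikbkb*, of NF-κB signalling, had log2 fold changes of 1.47 and 1.48, and *Usp38* and *Tbk1*, of interferon signalling, -0.24 and -0.49.

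**Figure D4:**
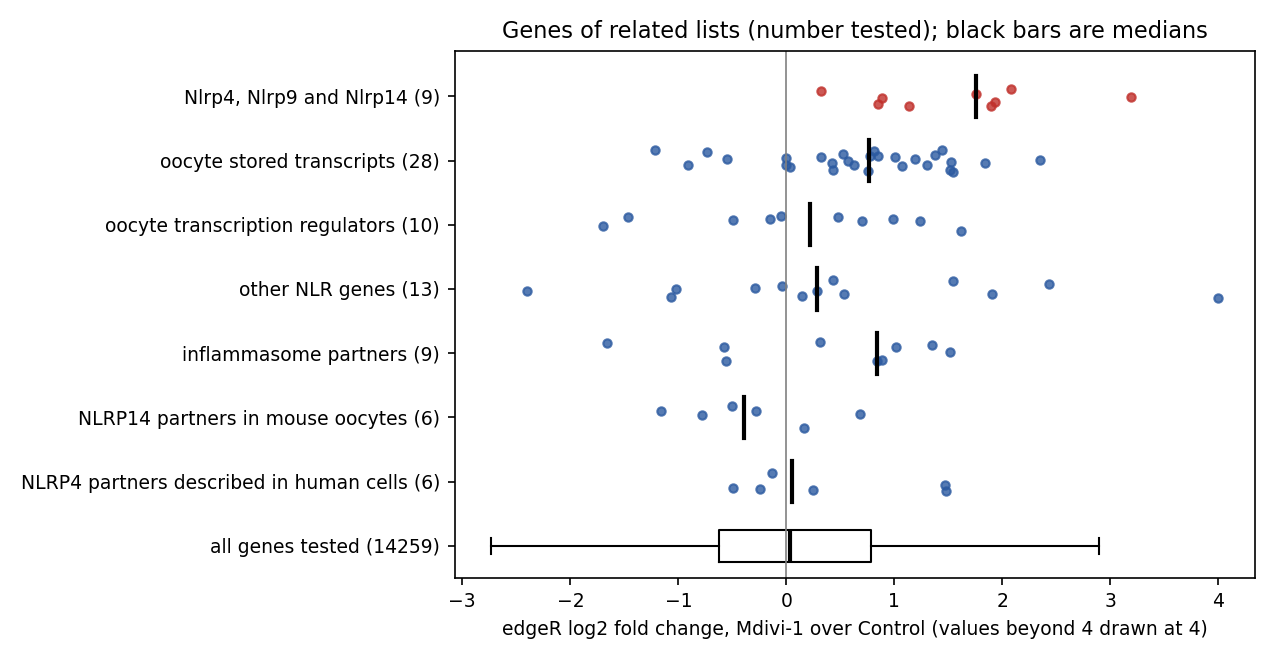
log2 fold change (Mdivi-1 over Control, edgeR) of each tested gene, with 1 point per gene and a black bar at the median of each list, and a box of the quartiles of all genes tested at the bottom, its whiskers drawn to Tukey's limits. *Nod2*, with no counts in Control libraries, is drawn at the edge, at 4. The 9 *Nlrp* genes lie highest with a median of 1.76. The inflammasome partners, most of them at a few CPM, have a median of 0.84, the stored oocyte transcripts 0.76 and the NLRP14 partners -0.39.

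Genes beside the 9 in the genome were examined. Within 100 kb there were 83 other annotated genes, many of them vomeronasal or olfactory receptor genes and pseudogenes, of which 33 were in the table and 14 could be tested. Of the 14, 9 had a log2 fold change above 0, beside 51.3% of all genes. An unadjusted edgeR p below 0.05 was found for 3 of them, beside 8.27% of all genes higher and 7.64% lower. *Ceacam20*, which starts or ends 361 bases from *Nlrp9b*, had 64.0 and 80.1 CPM in Mdivi-1 libraries, against 21.1 and 14.5 CPM in Control libraries. Its log2 fold change of 2.02 had an adjusted p of 0.145 by edgeR and 0.000440 by DESeq2. The others, *Cyp2b23* near *Nlrp9a* and *Vmn1r71* near *Nlrp4b*, had no count in one of the groups and at most 1.90 CPM in the other, and lay in opposite directions. *Mfsd14b* and *Zfp369*, the tested neighbours of *Nlrp4f*, had log2 fold changes of -0.52 and 0.16.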

How the data were processed

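RNA of 2 Mdivi-1 and 2 Control libraries of late 2C embryos was analysed as raw counts per gene. The authors made the deposited counts by trimming reads with cutadapt 1.16, mapping with STAR and counting uniquely mapped reads in exons of GENCODE genes, with mm10 named in the submitters' processing notes. The deposited table also holds a signal (the count divided by a size factor) and its mean. It further holds the authors' own DESeq2 comparison, as log2 fold changes with standard errors, a Wald score and p-values, none of which was used here. The table's gene coordinates are not those of GRCm38, so positions, overlaps and transcripts came from GENCODE M21 and promoter windows from RefSeq. Smart-Seq2 reads carry no molecular identifiers, so counts do not stand for independent molecules.

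In R 4.3.3, low counts were removed with filterByExpr (minimum count of 10) and the rest scaled by TMM and tested in edgeR 4.0.16 with the quasi-likelihood test, two-sided, Mdivi-1 against Control, with Benjamini-Hochberg adjustment over all 14259 genes. Standard errors were worked back from this test. DESeq2 1.42.0, limma-voom of limma 3.58.1, the edgeR likelihood ratio test, other scalings and filters, a replicate block and leaving out each library were alternatives. An adjusted p that DESeq2 gave as missing was left out. The edgeR and DESeq2 steps were also run on simulated data, and the outcome is not given here. The biological coefficient of variation was 0.66 and the chi-square per degree of freedom between libraries of a group was 47.4 (Mdivi-1) and 102 (Control).

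The 9 genes and the gene lists were chosen with earlier results of these data known. All 9 genes were named, with up to 4 genes of smallest unadjusted p from each list and the 5 genes nearest to the mean profile. *Nlrp5*, *Zp3*, *Dhx9*, and the genes beside the 9 in the genome lay outside this rule and were picked once values were known.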

Additional observations from a re-analysis of the deposited data

How the results depend on the processing

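The number of genes called at an adjusted p below 0.05, 0 by the edgeR quasi-likelihood test, turned on the test and the filter. With no filter on low counts, 455 genes were called higher and 364 lower, 5 of the 9 *Nlrp* genes among the higher ones. DESeq2 called 461 higher and 392 lower with 4 of the 9, limma-voom 125 and 77 with 4, and the edgeR likelihood ratio test 512 and 358 with 4. None of the 9 was called lower in any setting. The cause was not tested. With each library left out in turn, edgeR called 0 to 7 genes higher and 0 to 3 lower, with the 7 and 3 without Control replicate 2, and 0 of the 9 genes. DESeq2 then called 54 to 788 higher and 27 to 633 lower, with 2 to 5 of the 9 genes (68 and 143 without Mdivi-1 replicate 2, 603 and 198 without Control replicate 2). In these fits the group that kept both libraries set the spread, and the lone library was assumed to vary like it. The log2 fold change of *Nlrp4c* was -0.55 by edgeR and -0.54 by DESeq2 without Mdivi-1 replicate 2 and 5.91 by edgeR without Control replicate 1, and it dropped out under a minimum of 1 CPM in 2 libraries. The other 8 genes kept a log2 fold change above 0 in all 16 alternatives, from 1.78 to 2.001 for *Nlrp4f*, 1.79 to 2.06 for *Nlrp9a*, 1.77 to 2.32 for *Nlrp4e*, 1.59 to 1.89 for *Nlrp9b*, 0.70 to 1.47 for *Nlrp4a*, 0.44 to 1.44 for *Nlrp9c*, 0.30 to 1.69 for *Nlrp4b* and 0.09 to 0.52 for *Nlrp14*. The log2 ratio of summed *Nlrp4* counts was 1.70 and 1.83 with DESeq2 size factors and library totals, beside 1.72, and that of *Nlrp9* 0.97 and 1.161, beside 0.99. Libraries with the same replicate number did not deviate together (correlation 0.001), and a replicate block called 0 genes, with an adjusted p of 0.0991 for *Nlrp4e*, *Nlrp4f* and *Nlrp9a*.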
